A study of Mus musculus with 6 samples.

Results

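The loci described here carry provisional mouse gene names, either Gm followed by digits only (predicted gene models) or a clone name ending in Rik (cDNAs of the RIKEN collection). They were chosen by name alone: every locus of the deposited transcript assembly with exactly 1 gene name of either form. The rule found 3627 such loci, 1152 Gm and 2475 Rik, among 34632 loci, of which 23985 carried any name. Of the 3627, 859 had no fragment in any library, 1293 had a mean below 10 fragments, and 1475 (287 Gm and 1188 Rik) reached a mean of 10 and are the loci reported. Another 193 loci that join a Gm or Rik name with other names fell outside the rule.

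RNA was sequenced from the brainstem of mice at postnatal day 21, in 6 libraries of 3 pooled brainstems each. All animals carried the *Hoxa5* flox/flox allele and received tamoxifen from day 1 to day 4. The *Hoxa5* control group was *CMV-CreERT2* -/- and the *Hoxa5* cKO group, in which the floxed gene can be excised, was *CMV-CreERT2* +/-, with 3 libraries per genotype. The CMV promoter drives the recombinase in many cell types, so the deletion was not limited to one of them, and the genetic background was mixed, mostly 129/Sv with parts of C57BL/6 and DBA/2. No tamoxifen-treated group carried the recombinase without the floxed allele, so the recombinase and the deletion cannot be told apart.

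A Gm or Rik name says how a gene was found and not what it does. Many such genes have since received a protein or RNA name, while others are long noncoding RNAs, transcripts that encode no known protein and are often, but not always, spliced. Long noncoding RNAs often start beside the promoter of a protein-coding gene and run away from it on the other strand, an arrangement called head to head or divergent. Reads of such a pair that overlap can be assigned to either gene only by strand. These libraries were made with a kit that keeps the strand, and whether the counting used it is not given in the sources used here, so loci that overlap on opposite strands are uncertain.

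Libraries held 12034613 to 13202707 fragments. The locus that holds *Hoxa5*, the targeted gene, joins it with *Hoxa6* and 2700086A05Rik, and had 202, 337 and 77 fragments in the libraries labelled control 1 to 3 and 279, 57 and 63 in those labelled cKO 1 to 3. The libraries labelled control 3 and cKO 1 thus went against their labels at this locus, and the genotypes overlapped (log2 fold change -0.62, SE 0.48, adjusted p = 0.893 by edgeR). The library labelled cKO 1 also had 3 fragments over 4 Y-linked genes, against 1069 to 1734 in the other libraries. The 3 called Gm and Rik loci, and the called loci beside them, are given below with and without these libraries.

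Promoter windows of 300 bases around the annotated start, most of them upstream of it, were read from RefSeq on GRCm38.p6 for the loci on which the results turn: the 3 called Gm and Rik loci, and a pair of uncalled loci that face a called gene head to head. Each is written in the direction of its own transcription, and capitals mark matches to CCCGCC (a GC box, on either strand, so also GGCGGG) and to CAGCTG (an E-box). The windows are chr8:87472866-87473165 on the plus strand for *Gm2694*, chr4:116144567-116144866 on the minus strand for *1520402A15Rik*, chr17:66449701-66450000 on the minus strand for *1110012J17Rik*, chr11:119548380-119548679 on the plus strand for *Gm11762* and chr6:119847943-119848242 on the plus strand for *3110021A11Rik*.
Gm2694: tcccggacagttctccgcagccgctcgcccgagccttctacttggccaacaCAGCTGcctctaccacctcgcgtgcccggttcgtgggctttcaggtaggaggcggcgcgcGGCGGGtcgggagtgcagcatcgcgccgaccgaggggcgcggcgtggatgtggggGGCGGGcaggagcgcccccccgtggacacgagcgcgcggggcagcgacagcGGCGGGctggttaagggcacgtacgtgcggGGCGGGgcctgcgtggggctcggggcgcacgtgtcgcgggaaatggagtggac
1520402A15Rik: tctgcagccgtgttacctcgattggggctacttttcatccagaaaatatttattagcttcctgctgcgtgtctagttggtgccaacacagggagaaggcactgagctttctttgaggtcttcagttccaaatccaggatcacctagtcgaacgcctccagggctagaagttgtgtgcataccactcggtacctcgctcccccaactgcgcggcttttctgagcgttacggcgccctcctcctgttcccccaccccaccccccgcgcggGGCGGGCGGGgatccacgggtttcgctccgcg
1110012J17Rik: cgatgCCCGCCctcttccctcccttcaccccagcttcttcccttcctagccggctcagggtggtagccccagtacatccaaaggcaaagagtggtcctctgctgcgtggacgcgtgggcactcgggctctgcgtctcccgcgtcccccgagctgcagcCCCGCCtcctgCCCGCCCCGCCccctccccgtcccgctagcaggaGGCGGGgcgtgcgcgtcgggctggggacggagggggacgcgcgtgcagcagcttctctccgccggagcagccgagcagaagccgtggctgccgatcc
Gm11762: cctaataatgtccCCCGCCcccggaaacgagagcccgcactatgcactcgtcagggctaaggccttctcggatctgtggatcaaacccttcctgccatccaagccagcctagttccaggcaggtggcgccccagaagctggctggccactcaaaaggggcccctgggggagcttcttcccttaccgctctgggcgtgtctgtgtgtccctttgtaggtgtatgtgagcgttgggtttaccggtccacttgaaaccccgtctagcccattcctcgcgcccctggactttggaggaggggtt
3110021A11Rik: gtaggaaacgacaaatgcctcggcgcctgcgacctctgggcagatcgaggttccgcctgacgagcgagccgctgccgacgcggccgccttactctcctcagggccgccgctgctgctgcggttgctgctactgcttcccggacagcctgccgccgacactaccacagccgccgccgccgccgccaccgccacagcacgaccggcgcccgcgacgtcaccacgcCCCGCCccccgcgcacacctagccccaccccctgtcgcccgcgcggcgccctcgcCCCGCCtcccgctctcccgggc

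The *Gm2694* window held 4 GC boxes and 1 E-box, and 73.7% of its bases were G or C, against a median of 52.7% over 32851 promoters. G or C made up 75.3% of the *3110021A11Rik* window and 72.0% of the *1110012J17Rik* window. It made up 60.3% of the *Gm11762* window and 58.3% of the *1520402A15Rik* window. The *1110012J17Rik* window held 5 GC boxes and the *1520402A15Rik* window 2, overlapping by their ends. The *3110021A11Rik* window held 2 and the *Gm11762* window 1. A GC box stood in 35.3% of all promoters of this length and CAGCTG in 16.3%. The other motifs searched on both strands were TGATTNAT, a PBX-HOX site found in 3.22% of promoters, the E-box CAGATG, found in 17.2%, and the homeodomain core TAATTA, found in 5.29%. These letters were not in any of the 5 windows. The *Gm2694* window begins downstream of the start of the assembled locus, at 87472693 on chromosome 8, and *Cbln1* starts at 87472592, outside the window. The *1520402A15Rik* window also lies downstream of the start of its assembled locus, at 116144896 on chromosome 4. The *3110021A11Rik* window contains the assembled start of *Erc1*, at 119848150 on chromosome 6.

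Of the 1475 loci, 1468 passed the filter on low counts and were tested with edgeR among 21854 loci in all. A locus was called when its Benjamini-Hochberg adjusted p over all tested loci was under 0.05. The loci called lower in cKO were 3, *Gm2694*, *1520402A15Rik* and *1110012J17Rik*, and 0 were called higher. The 3 made up 0.204% of the tested Gm and Rik loci, whereas 0.531% of all tested loci were called, 0.503% lower and 0.0275% higher. Without adjustment and at p under 0.05, 42 Gm and Rik loci were lower and 47 higher, where all loci gave 4.03% lower and 2.91% higher. DESeq2 also called 3 lower and 0 higher, where it called 0.372% of all loci. On 3 calls, the share of Gm and Rik loci called was not read as different from that of all loci.

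*Gm2694* is a long noncoding RNA gene at chr8:87472693-87531949 on the plus strand (GRCm38, the mm10 build of the assembly), with 5 exons and the largest log2 fold change in size of the 3 called loci. Its fragments numbered 277, 259 and 208 in control 1 to 3 and 90, 140 and 99 in cKO 1 to 3. Every control library lay above every cKO library, and the genotypes did not overlap. Scaled by library size, to fragments per 1000000 (CPM), the level was 19.8 ± 3.65 (SD, n = 3) in control and 8.69 ± 1.78 in cKO. The log2 fold change, cKO over control, was -1.18 (SE 0.15, adjusted p = 0.000676 by edgeR), so the control level was 2.27 times the cKO level. Without control 3 and cKO 1 the log2 fold change was -1.23 (adjusted p = 5.74e-05).

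The nearest named locus of *Gm2694* was *Cbln1*, which encodes cerebellin 1, a secreted protein that joins presynaptic neurexins to a glutamate receptor of the delta family at synapses of cerebellar granule neurons. *Cbln1* lies at chr8:87468853-87472592 on the minus strand, so the pair is head to head with a gap of 100 bases. *Cbln1* had 875, 663 and 630 fragments in control 1 to 3 and 401, 425 and 377 in cKO 1 to 3. Again each control library lay above each cKO library. Its level was 57.8 ± 12.5 CPM in control and 31.95 ± 1.94 in cKO (SD, n = 3), a log2 fold change of -0.85 (SE 0.11, adjusted p = 0.00101 by edgeR), and of -1.01 without control 3 and cKO 1. Per base of transcript, *Cbln1* was the more abundant of the pair in both genotypes, at 31.1 against 7.05 FPKM in control and 17.1 against 3.47 FPKM in cKO.

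A locus with no gene name lies 273 bases past the 3′ end of *Gm2694* on the same strand, at chr8:87532223-87535742, and consists of 1 exon. It was named here after its values were seen. It had 64, 57 and 64 fragments in control 1 to 3 and 11, 22 and 22 in cKO 1 to 3, with no overlap between the genotypes. Its log2 fold change was -1.74 (SE 0.23, adjusted p = 0.00101 by edgeR), and -1.52 without control 3 and cKO 1. *Cbln1* and this locus were the 2 called loci within 100 kb of *Gm2694*, and no further locus within 1 Mb was called. Whether the unnamed locus and *Gm2694* belong to 1 transcript was not tested.

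**Figure D1:**
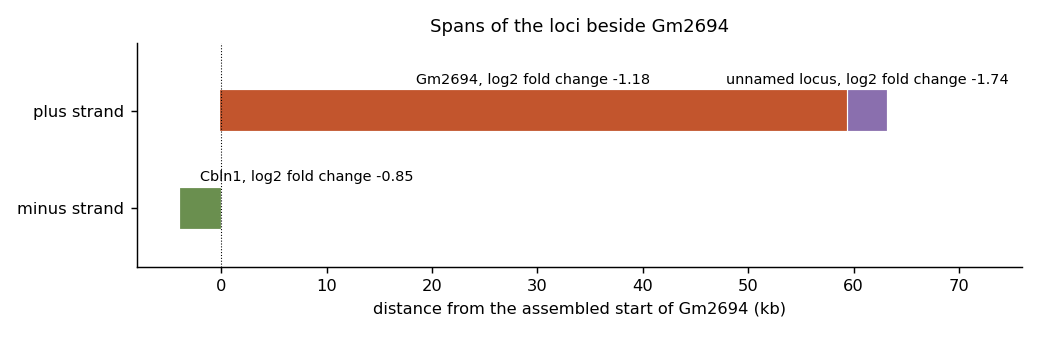
Spans of *Cbln1*, *Gm2694* and the unnamed locus along the chromosome, in kb from the assembled start of *Gm2694*, with the strand on the vertical axis and the log2 fold change (cKO over control) written at each span. *Cbln1* and *Gm2694* start 101 bases apart on opposite strands, and all 3 loci were lower in cKO.

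The summed level of 8 granule neuron markers moved with this pair. It was 592, 393 and 307 CPM in control 1 to 3 and 116, 148 and 123 CPM in cKO 1 to 3. Of the 8 genes, 6 were called lower, 7 were lower in each cKO library than in every control library, and none was at 0. Of 8 Purkinje cell markers, 7 were called lower, and their sum was 584 to 871 CPM in control and 341 to 398 CPM in cKO. Among all tested loci, 0.503% were called lower and 6.54% were lower without overlap. The study reports several genes of both lists, among them *Gabra6*, *Gabrd*, *Slc1a6*, *Car8* and *Itpr1*, as downregulated in these same libraries. The lists were chosen with that known, so their counts are not independent evidence. The 10 brainstem neuron markers gave 0 calls by edgeR and 0 by DESeq2 (before adjustment, p was under 0.05 for 0 lower and 1 higher), with sums of 1230 to 1350 CPM in control and 1242 to 1450 CPM in cKO. Of 5 choroid plexus markers 0 were called by edgeR and 0 by DESeq2 (before adjustment, 0 lower and 1 higher), and of 6 meningeal and vascular markers 1 was called higher (before adjustment, 2 lower and 1 higher), with a median log2 fold change of -0.09. In dissected whole brainstem, a different amount of cerebellar tissue in the pools, fewer cells of a type and less RNA per cell cannot be told apart. The part of these cell types in the values of *Gm2694* was not tested.

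*1520402A15Rik*, assembled at chr4:116128301-116144896 on the minus strand, is matched by RefSeq to *Lurap1*, a protein-coding gene for a leucine rich adaptor protein. The RefSeq gene ends near 116137000, so the assembled locus runs on past its 3′ end. The locus had 665, 517 and 533 fragments in control 1 to 3 and 358, 409 and 376 in cKO 1 to 3. The lowest control library stood above the highest cKO library. The level was 45.6 ± 7.73 CPM in control and 30.3 ± 0.93 CPM in cKO (SD, n = 3), and the log2 fold change was -0.59 (SE 0.10, adjusted p = 0.00577 by edgeR). Without control 3 and cKO 1 it was -0.66 (adjusted p = 0.00185). Its nearest named locus was *Rad54l*, a gene of homologous recombination, 4610 bases away on the same strand. *Rad54l* was sparsely covered, with 10, 15 and 13 fragments in control and 9, 8 and 11 in cKO, and overlapped between genotypes (log2 fold change -0.43, SE 0.37, adjusted p = 0.90). The nearest called locus of *1520402A15Rik* was 13876190 bases away.

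*1110012J17Rik* is matched to *Mtcl1*, which encodes a microtubule crosslinking factor, at chr17:66335761-66449777 on the minus strand, with 16 exons. It had 1388, 1201 and 1346 fragments in control 1 to 3 and 891, 1151 and 1096 in cKO 1 to 3. The genotypes did not overlap in normalized level, with 88.3 CPM in cKO 2, the highest cKO library, and 97.8 CPM in control 2, the lowest control library. The level was 104 ± 8.28 CPM in control and 83.1 ± 7.59 CPM in cKO (SD, n = 3). The log2 fold change was -0.33 (SE 0.07, adjusted p = 0.0392 by edgeR), and without control 3 and cKO 1 it was -0.27 and no longer called (adjusted p = 0.0812). When 1 library at a time was left out, this locus stayed called in 1 of 6 fits, the one without control 2, whereas *Gm2694* and *1520402A15Rik* were called in 6 of 6. Its nearest named locus was *Rab12*, which encodes a small GTPase of membrane traffic, at 44734 bases. *Rab12* had 634, 709 and 725 fragments in control and 733, 702 and 763 in cKO, which overlap (log2 fold change 0.09, SE 0.07, adjusted p = 0.874). The nearest called locus was 13840434 bases away.

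**Figure D2:**
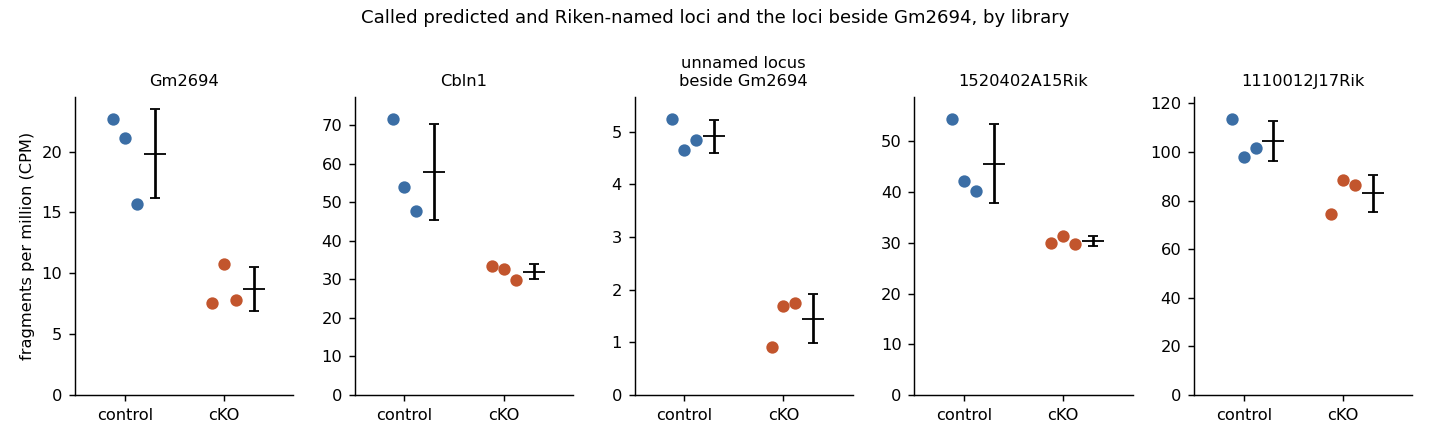
Level (CPM) in each library for the 3 called Gm and Rik loci, for *Cbln1* and for the unnamed locus beside *Gm2694*, with control libraries in blue, cKO libraries in orange, and black bars for the mean ± SD of 3 libraries. In every panel the 3 cKO points lie below the 3 control points, and each vertical axis starts at 0.

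The tested loci as a whole were centred near no change. The median log2 fold change of the Gm and Rik loci was 0.0043, beside 0.0034 over all tested loci and -0.0035 over the 13819 other named loci tested with a mean of 10 fragments. The 5th and 95th percentiles were -0.34 and 0.41, beside -0.37 and 0.39 over all loci. Libraries of the genotypes did not overlap in 80 Gm and Rik loci that were lower and 113 that were higher, or 5.45% and 7.70% of those tested, beside 6.54% and 5.61% of all loci. With p under 0.01 before adjustment, 18 were lower and 10 higher, 1.91% in all, beside 1.71% lower, 0.549% higher and 2.26% in all among tested loci. At this p, 1.23% of the tested Gm and Rik loci were lower and 0.681% higher. By both measures the share of lower loci was smaller than among all loci and that of higher loci larger. These differences were not tested.

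**Figure D3:**
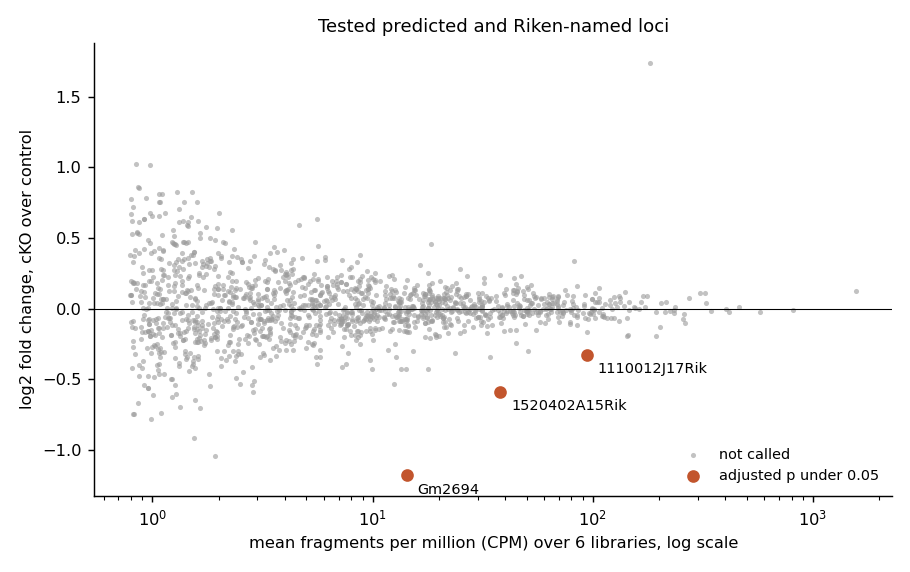
Log2 fold change (cKO over control) of the 1468 tested Gm and Rik loci against their mean CPM over 6 libraries, on a log scale. The 3 called loci, in orange, lie at -1.18, -0.59 and -0.33, below the grey loci of like abundance.

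Among uncalled loci, the 10 with the smallest p in the lower direction had adjusted p-values of 0.0518 to 0.288 by edgeR. *E030024N20Rik*, a single-exon locus within the span of *Gnaq* on the strand opposite its annotated pseudogene, had 252, 229 and 291 fragments in control and 192, 197 and 183 in cKO (log2 fold change -0.43, SE 0.09). *Gnaq*, which encodes a G protein alpha subunit, overlapped between genotypes with a log2 fold change of 0.01 (SE 0.05). The minus-strand locus of *2610029I01Rik* (*Tstd3*) had 203, 205 and 206 against 154, 150 and 153 (log2 fold change -0.42, SE 0.10), without overlap.

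The other loci of this set named a range of protein-coding genes. *6430704M03Rik*, matched to *Frrs1l*, whose protein takes part in AMPA receptor assembly, was the most abundant at 2762, 2496 and 2561 against 2212, 2312 and 2303 fragments (log2 fold change -0.20, SE 0.05, adjusted p = 0.195). *6430573F11Rik* (*Trmt9b*, related to tRNA methyltransferases) gave -0.53, *1810027O10Rik* (*Tmem256*) -0.43, *6530418L21Rik* (*Inka2*) -0.43 and *1190002N15Rik* (*Dipk2a*) -0.25 on the log2 scale. The locus counted as *4930539N22Rik*, the name of a long noncoding RNA, has 1 exon and lies inside *Ralyl* on the same strand. It gave -0.31, and *Ralyl* gave -0.20 (SE 0.06, adjusted p = 0.299 by edgeR). Another locus named *4930539N22Rik* overlaps *Ralyl* on the opposite strand. Whether the fragments of the 1-exon locus belong to *Ralyl* was not tested. The long noncoding *5830416P10Rik* (*Mirt1*) gave -1.04, on 43, 28 and 26 against 14, 20 and 13 fragments. In all Gm and Rik loci of this set the normalized levels of the genotypes did not overlap, beside 6.54% of all tested loci that were lower without overlap. The set was picked as uncalled loci with small p, so the lack of overlap follows largely from that choice. Leaving out 1 library brought some of the loci named here under it: *E030024N20Rik* without cKO 1 or control 2, *6430573F11Rik* without control 3 and *6530418L21Rik* without cKO 1.

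The 10 uncalled loci with the smallest p in the higher direction had adjusted p-values of 0.0748 to 0.419. *B230217O12Rik*, a long noncoding RNA head to head with *Fam160b1* at a gap of 109 bases, had 59, 49 and 56 fragments in control and 86, 82 and 87 in cKO (log2 fold change 0.64, SE 0.15). *Fam160b1* itself gave 0.01 (SE 0.06). *9630013A20Rik*, a long noncoding RNA on the strand opposite *Pcdh17*, had 805, 926 and 1015 against 959, 1134 and 1376 fragments (log2 fold change 0.34, SE 0.09, adjusted p = 0.147). *Pcdh17*, a protocadherin gene, gave 0.18 (SE 0.05, adjusted p = 0.284), and the normalized levels of both loci separated by genotype. Without cKO 1, *9630013A20Rik* was called (log2 fold change 0.43, adjusted p = 0.00793).

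*2610528E23Rik* marked 2 loci of unlike behaviour. A 470-base plus-strand locus had 911, 1824 and 395 fragments in control 1 to 3 and 1087, 2809 and 6750 in cKO 1 to 3, which overlap, with a log2 fold change of 1.74 (SE 0.47, adjusted p = 0.171 by edgeR). The value depended on single libraries: the log2 fold change was 0.87 without cKO 3 (adjusted p = 0.734), 2.16 without cKO 1 (adjusted p = 0.00203) and 2.43 without control 2 (adjusted p = 0.0407). The minus-strand locus of the same name, which follows the annotated gene *Cmss1*, had 65, 61 and 69 against 65, 90 and 49 fragments (log2 fold change 0.07, SE 0.19). The 2 loci lie on opposite strands of the same region of chromosome 16.

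The rest of the higher set was led by *Gm3985* (log2 fold change 0.59, SE 0.16), *C030030A07Rik* (*Smco3*, 0.46, SE 0.13, called without cKO 2 at an adjusted p = 0.0066) and *5430405H02Rik*, a long noncoding RNA opposite *Tgif2* (0.45, SE 0.15). *2810013P06Rik*, head to head with *Ankrd11*, gave 0.31, *Gm5803* 0.24, *A130022J15Rik* (*Eogt*) 0.22 and *2900097C17Rik* (*Norad*) 0.13 on the log2 scale. The loci counted as *Gm3985*, with 1 exon, and as *Gm5803* lie on the strand opposite the annotated genes of those names. *Norad*, a long noncoding RNA that binds Pumilio proteins, had the highest mean CPM of the Gm and Rik loci. It had 18547, 18081 and 19975 fragments in control and 19940, 22141 and 19673 in cKO (SE 0.04, adjusted p = 0.405), and its normalized levels did not overlap.

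After *Norad*, the loci of highest mean CPM were *C230091D08Rik*, part of the imprinted noncoding transcript *Snhg14* that runs opposite *Ube3a*, and *1700020I14Rik* (*Oip5os1*, also called Cyrano). *C230091D08Rik* had 9762, 9969 and 10995 fragments in control and 9208, 10785 and 10579 in cKO. *1700020I14Rik* had 7107, 7067 and 7580 against 6574, 7306 and 7477. Both overlapped between genotypes. They were followed by *Gm15800* (*Hectd4*, a ubiquitin ligase gene), *C230004F18Rik* (*Cdr1os*), *2610507B11Rik*, *4932438A13Rik*, *4930470H14Rik*, *6330439K17Rik* (*Dzank1*) and *Gm20594*. The log2 fold changes of these 9 loci after *Norad* ran from -0.03 to 0.11, and the genotypes overlapped in each.

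*Gm2694*, the other called loci and several loci above are in the study's own list of low p-values. That list comes from the same libraries, so the directions here are not independent evidence. Of the rest of that list, *4930422G04Rik* (*Zgrf1*), head to head with *Larp7* at 139 bases, had 90, 90 and 100 fragments in control and 110, 109 and 108 in cKO (log2 fold change 0.23, SE 0.12, adjusted p = 0.791), without overlap. Its FPKM was 1.21 ± 0.03 in control and 1.97 ± 0.159 in cKO (SD, n = 3), a larger difference than that of the fragment counts. *Larp7*, which encodes a protein that binds the 7SK RNA, gave -0.24 (SE 0.11, adjusted p = 0.669). *Gm5480*, with 3, 3 and 1 fragments in control and 0 in each cKO library, was below the minimum of 10 and was not tested. The plus-strand locus of *2610029I01Rik* had 25, 21 and 21 against 35, 27 and 24 fragments, which gave 0.36 (SE 0.26), unlike the minus-strand locus of that name at -0.42.

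The 1475 loci differed in the type of gene they are named after. RefSeq matched 813 by symbol and 647 by an older name, and 15 were not matched. By the type of the matched gene, 752 were protein-coding, 649 long noncoding, 58 pseudogenes and 1 of another type. The match used name and position and not strand. Loci on the strand opposite the named gene, counted below, therefore took the type of that gene and are part of the values by type. The long noncoding loci had a median of 2.07 FPKM and the protein-coding loci 5.64 FPKM, beside 8.57 FPKM for the other named loci with a mean of 10 fragments. Gm loci were lower than Rik loci, with medians of 1.75 and 3.84 FPKM. Of the long noncoding loci 1 was called lower (*Gm2694*), and of the protein-coding loci 2. The median log2 fold change was 0.0049 in long noncoding and 0.03 in pseudogene loci.

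Names and strands did not always go together. The 1475 loci carried 1249 distinct names, and 90 names lay on more than 1 locus, covering 316 loci, with 34 loci named *4930419G24Rik*, 17 named *D330022K07Rik* and 14 named *1700040N02Rik*. The assembly placed 1156 loci on the strand that GENCODE gives for the gene of that name and 234 on the opposite strand, and 85 were not matched. Of the 234, 223 were single-exon loci and 228 took their name only because they overlap an exon of the named gene on the other strand. In all, 247 loci took their name in that way, and edgeR called 0 of them, with p under 0.05 before adjustment for 5 lower and 11 higher. Among all tested loci 0.531% were called, and 4.03% and 2.91% had such a p in the lower and the higher direction, so a count of 0 in a set of this size says little. At the minimum itself, *Gm6878*, *D330022K07Rik* and *A430071A18Rik* had a mean of 10 fragments and were kept, and *Gm6277*, *4930473A02Rik* and *2010009K17Rik*, at 9.83, were not.

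The position of each locus relative to its nearest other named locus was taken from the spans in the assembly. Of the 1475 loci, 710 (48.1%) overlapped it, 453 on the opposite strand and 257 on the same strand, and 242 of the 257 lay wholly within its span. Another 190 were head to head within 5 kb, 116 on the same strand within 5 kb, and 93 tail to tail within 5 kb. A further 307 lay within 100 kb and 59 beyond. The median gap of those without overlap was 4334 bases, and the largest was 1032958 bases, at *2410018L13Rik*. In 146 of the head-to-head pairs the gap was under 500 bases.

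Changes in the members and their neighbours went together weakly. Over the 1260 pairs with both loci tested, Spearman's rho of the log2 fold changes was 0.13. It was 0.26 in 244 pairs overlapping on the same strand, 0.18 in 170 head-to-head pairs, 0.09 in 413 pairs overlapping on opposite strands and -0.01 in 226 pairs apart by 5 to 100 kb. These are descriptions across pairs of loci that share libraries and, where they overlap on 1 strand, may share fragments. In 136 head-to-head pairs under 500 bases with both loci tested, rho was 0.15. Of those neighbours 3 were called, and of those members 1, *Gm2694*. Among the other members of these pairs the largest log2 fold change in size was 0.76.

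**Figure D4:**
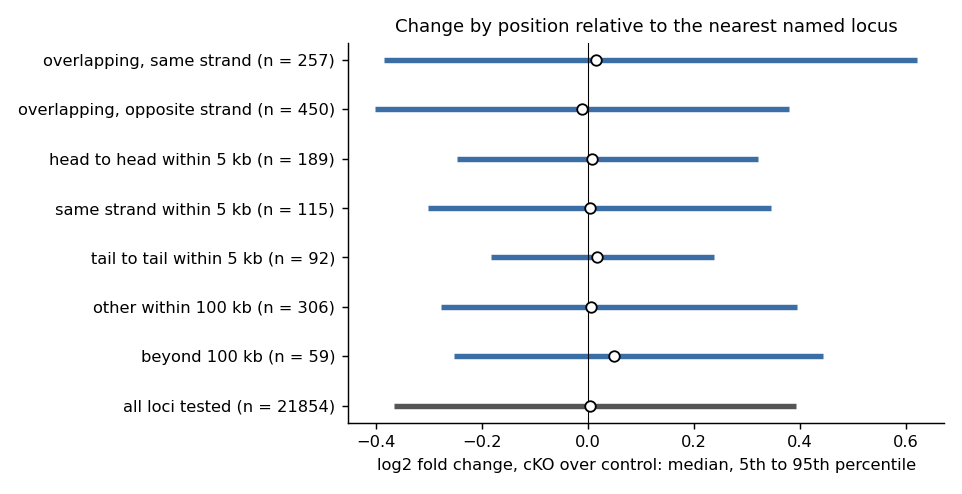
Log2 fold change (cKO over control) of the tested Gm and Rik loci by position relative to the nearest named locus, with a circle at the median and a bar from the 5th to the 95th percentile, and all tested loci in grey. Medians lie between -0.01 and 0.05, and the bar of loci overlapping on the same strand reaches farthest up, to 0.62.

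Whether changed loci lie beside changed genes was asked by counting calls. Of the 1468 tested loci, 11 (0.749%) had a called nearest named locus, beside 88 of 13887 other named loci (0.634%). Of the 11, 1 was itself called, *Gm2694* beside *Cbln1*, and 10 were not, of which *C130030K03Rik* is matched by RefSeq to the same gene as its neighbour. Of the 3 called loci, 2 had an uncalled nearest named locus. Among the other named loci, 5 of 96 called loci had a called nearest named locus. When any named locus within 100 kb was considered, 28 members had a called one, and *Gm2694* was again the 1 called member among them. Counting members and neighbours by p under 0.01 before adjustment gave a neighbour under that value for 5 of 28 such members and for 45 (3.07%) of all 1468. Some of these pairs overlap and may share fragments, and the difference was not tested. With 3 called members, these shares cannot be compared with precision.

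**Figure D5:**
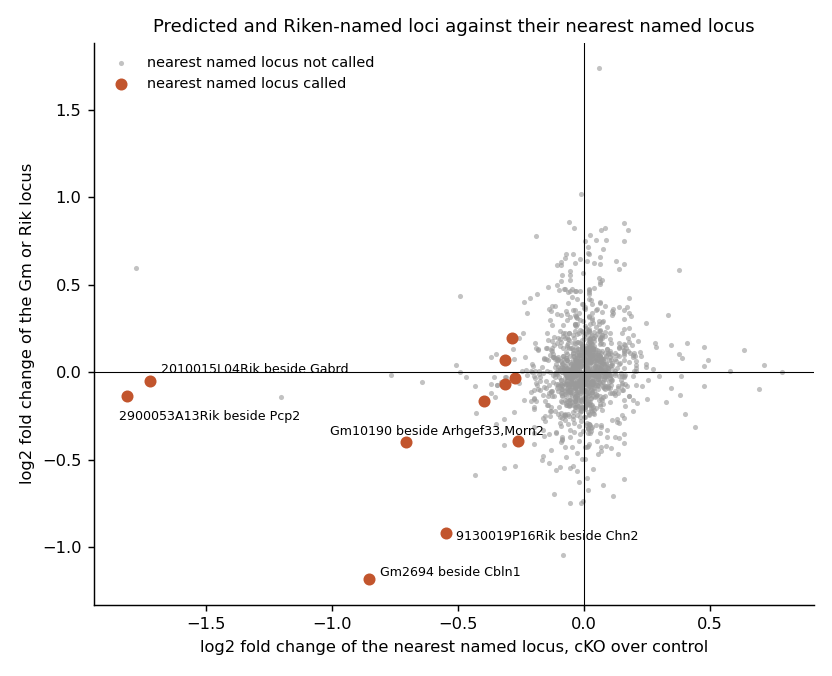
Log2 fold change (cKO over control) of each Gm or Rik locus against that of its nearest named locus, for 1260 pairs with both loci tested, with orange points where the nearest named locus was called. Of the 11 orange points, *Gm2694* beside *Cbln1* lies lowest at -1.18, while *2900053A13Rik* and *2010015L04Rik* lie at -0.14 and -0.05 beside neighbours at -1.81 and -1.72.

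The uncalled loci beside *Gabrd* and *Pcp2*, the called neighbours lowest in log2 fold change, had small log2 fold changes when all libraries were used. *2010015L04Rik* (*Cfap74*, a gene of cilia and flagella) is head to head with *Gabrd*, the delta subunit of the GABA-A receptor, across 132 bases, at chr4:155398202-155443110. *Gabrd* had 204, 125 and 126 fragments in control and 44, 58 and 36 in cKO (log2 fold change -1.72, SE 0.21, adjusted p = 0.000676 by edgeR). *2010015L04Rik* had 217, 220 and 269 against 188, 257 and 238, which overlap (log2 fold change -0.05, SE 0.10, adjusted p = 0.969). The short gap holds for the assembled starts only: the RefSeq promoter windows of *Cfap74* lie inside the assembled locus, from 155408940 on chromosome 4, and the RefSeq gene reaches back past the start of *Gabrd*, at 155398069. The neighbour was called and the member was not, and the difference between them was not tested.

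*2900053A13Rik* (*Pet100*, which takes part in the assembly of cytochrome c oxidase) overlaps *Pcp2*, a Purkinje cell gene, on the opposite strand. *Pcp2* had 261, 150 and 169 fragments in control and 52, 77 and 36 in cKO (log2 fold change -1.81, SE 0.23). *2900053A13Rik* had 151, 144 and 141 against 154, 140 and 102, which overlap (log2 fold change -0.14, SE 0.14, adjusted p = 0.921). Without control 3 and cKO 1 the log2 fold change of *2900053A13Rik* was -0.36 (SE 0.15, adjusted p = 0.423 by edgeR). Both *Gabrd* and *Pcp2* belong to the marker lists above.

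*9130019P16Rik*, a long noncoding RNA of 14 exons that overlaps *Chn2* on the opposite strand, had the lowest log2 fold change among the uncalled loci beside called genes. *Chn2* encodes beta-chimaerin, a GTPase-activating protein for Rac, and had 1639, 1461 and 1431 fragments in control and 1064, 1098 and 934 in cKO (log2 fold change -0.55, SE 0.08, adjusted p = 0.0016). *9130019P16Rik* had 23, 29 and 24 against 13, 11 and 16 fragments. The genotypes did not overlap, but the log2 fold change of -0.92 (SE 0.29) did not pass the adjusted threshold (adjusted p = 0.333 by edgeR, unadjusted p = 0.00575).

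*C130030K03Rik* is an older name of *Grik2* itself in RefSeq, so this single-exon locus, 1553 bases from the assembled *Grik2* on the same strand, and its neighbour carry names of 1 gene. It had 108, 116 and 98 fragments in control and 77, 80 and 88 in cKO. The genotypes did not overlap (log2 fold change -0.39, SE 0.14, adjusted p = 0.449). *Grik2*, a kainate receptor subunit gene, gave -0.26 (SE 0.05, adjusted p = 0.0388). *Gm10190*, on the strand opposite the locus that joins *Arhgef33* and *Morn2* (-0.71, SE 0.13), gave -0.40 (SE 0.36) with 8 to 17 fragments per library, which overlap. The joined locus lost its call without cKO 3 and in both limma fits, where its log2 fold change was -0.22 and -0.20, and its FPKM was 14.6 ± 2.45 in control and 12.4 ± 0.85 in cKO (SD, n = 3). *Gm10789*, opposite *Tiam1* (-0.40, SE 0.08), a gene for an activator of Rac, gave -0.16 (SE 0.30).

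The last members beside a called gene showed no separation downward. *Gm11762*, a long noncoding RNA head to head with *Nptx1* across 702 bases, had 10, 11 and 13 fragments in control and 12, 14 and 13 in cKO, with a log2 fold change of 0.20 (SE 0.34). *Nptx1*, which encodes the synaptic protein neuronal pentraxin 1, gave -0.29 (SE 0.06, adjusted p = 0.0483). *3110021A11Rik*, across 42 bases from *Erc1*, a scaffold gene of the presynaptic active zone, had 12, 14 and 19 against 12, 15 and 17 fragments (log2 fold change -0.03, SE 0.32), while *Erc1* gave -0.27 (SE 0.06, adjusted p = 0.0499). *A230046K03Rik* (*Washc4*, a WASH complex gene) and *1500009L16Rik* both have *Appl2*, an endosomal adaptor gene, as nearest named locus, at 2713 and 74088 bases. They gave -0.07 (SE 0.05) and 0.07 (SE 0.14), and *Appl2* gave -0.31 (SE 0.07, adjusted p = 0.0392). *Nptx1* and *Erc1* were called in 0 of the 6 fits that left out 1 library, *Grik2* in 1, and *Appl2* and *Tiam1* in 2. Without control 3 and cKO 1, *Grik2*, *Nptx1* and *Erc1* were no longer called (adjusted p = 0.128, 0.0807 and 0.076), while *Gabrd*, *Pcp2*, *Chn2*, *Appl2*, *Tiam1* and the locus of *Arhgef33* and *Morn2* were, with log2 fold changes of -1.88, -1.93, -0.68, -0.38, -0.43 and -0.79. The standard errors of *Gm10190*, *Gm10789*, *Gm11762* and *3110021A11Rik*, with 8 to 39 fragments per library, were 0.30 to 0.36, so changes as small as those of *Nptx1*, *Erc1* or *Tiam1* were not detectable in them at this depth.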

How the data were processed

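RNA from 6 pools of brainstem was sequenced, 3 per genotype. Per the labels and the study's methods, the authors made ribosome-depleted stranded libraries, used CASAVA 1.6 for base calling, mapped the reads on mm10 by TopHat2 2.0.9, and built a merged transcript assembly with the Cufflinks 2.2.0 suite, whose Cuffdiff program gave the values per locus. The deposited table holds raw fragment counts per locus and library, as whole numbers, and FPKM values that Cuffdiff scaled between libraries. The 2 columns of scaled fragments were not used. Replicate numbers of the deposited table were taken as names within a genotype; nothing ties them to the numbered pools.

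Names, strands and spans came from the deposited assembly. The gap is the number of bases between 2 spans, 0 where they overlap. Counts were filtered with filterByExpr, normalized by TMM and compared with the quasi-likelihood test of edgeR 4.0.16 in R 4.3.3 over all loci, with Benjamini-Hochberg adjustment. Normalized levels decided whether genotypes overlapped. Alternatives used DESeq2 1.42.0 and limma 3.58.1, the latter on log2(FPKM + 1) and log2(FPKM + 0.1). On simulated data with 21854 loci, edgeR found 59.7%, 82.1% and 95.5% of 1.5-, 2- and 4-fold changes, with 5 false among 163 calls. The simulated spread followed the trend with abundance alone, with no extra spread of single loci and no outlying library. These shares cover all tested loci, with a median of 138 fragments, beside 77.3 for the Gm and Rik loci. They may thus be better than holds for the Gm and Rik loci. Fragments are not deduplicated by molecular identifiers, and p-values measure the spread between pools.

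Members, marker lists and tests were chosen with earlier results of these data known. Loci are named where called, where in the study's list of low p-values, among the 10 smallest p-values in each direction, among the 10 of highest mean CPM, or beside called genes, with their nearest named locus. 1 locus that this rule names is not reported here.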

Additional observations from a re-analysis of the deposited data

How the results depend on the processing

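*Gm2694* and *1520402A15Rik* were called lower in every fit to counts, and *Gm2694* had a called nearest named locus in each, whether the neighbour was taken as the nearest tested locus, the nearest that was neither Gm nor Rik, the nearest without overlap, or any within 10 or 100 kb. With limma on log2(FPKM + 1) or log2(FPKM + 0.1), 0 loci were called lower and 0 called loci had a called neighbour. Those fits called 0 and 1 of all loci lower and gave 44 Gm and Rik loci lower with an unadjusted p under 0.05. Members called lower numbered 7 with no filter on low counts and 5 without control 3 and cKO 1, and 2 to 5 when 1 library was left out. Members called higher, 0 as reported, numbered 4 with no filter, 3 without control 3 and cKO 1, and 0 to 2 with 1 library left out. With the replicate number as a block 1 member was called higher, *9630013A20Rik*. The correlations of same-numbered libraries were 0.03, -0.08 and 0.05, and those of differently numbered libraries ran from -0.11 to 0.07. They showed no pairing by number, and whether libraries shared litters or batches was not tested. *1110012J17Rik* was called in 6 of 16 alternatives, with adjusted p-values up to 0.344 in count fits and 0.51 in limma. Its call was lost with the filter of 50 fragments, with named loci alone, without control 3 and cKO 1, and in 5 of 6 fits that left out 1 library. The median log2 fold change of the members was 0.0168 with upper-quartile factors, where that of all loci was 0.0158, was 0.0153 without control 3 and cKO 1, and ran from 0.000786 to 0.0154 with 1 library left out. At an unadjusted p under 0.01 in place of the adjusted threshold, 5 members below it had a neighbour below it. A minimum mean of 5 or 20 fragments gave 1791 or 1180 members. Signs turned for uncalled members near 0: without control 3 and cKO 1, *Gm10789* was at 0.0355, *2010015L04Rik* at 0.11 and *3110021A11Rik* at 0.23. With 1 library left out, *1500009L16Rik* ran from -0.0029 to 0.18, *Gm10789* from -0.34 to 0.18, *2010015L04Rik* from -0.11 to 0.0422, *3110021A11Rik* from -0.15 to 0.13 and *2900053A13Rik* from -0.30 to 0.0247. Where not stated otherwise, the cause of a difference between settings was not tested. Depth limits the loci near the minimum, where 1 fragment is a large part of the value.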
